A study of Ovis aries with 6 samples.

Results

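The genes described are LOC101113965 and LOC114109611, both annotated as ubiquitin D-like, LOC101114226, annotated as vascular cell adhesion protein 1-like, and ICAM1, intercellular adhesion molecule 1. They are 4 of 1620 genes in the deposited table and were picked by name from it. The cells were primary ovarian granulosa cells, which nurse the oocyte and produce oestradiol, of the Hu breed of sheep (Ovis aries). They were isolated from follicles of at least 3 mm of slaughterhouse ovaries and grown in culture. Lipofection delivered either a small interfering RNA (siINHBA, 3 libraries) that targets INHBA, which encodes the beta A subunit of activin A and inhibin A, or a negative-control RNA (siNC, 3 libraries), and RNA was taken after 24 h. The labels name no genetic modification, no added cytokine and no untransfected group, and do not say whether the 3 libraries of a group were separate cultures or animals, so their spread may be technical.

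Ubiquitin D, also called FAT10, is a ubiquitin-like protein with a pair of ubiquitin-like domains that is attached to other proteins and directs them to the proteasome. VCAM1 and ICAM1 are cell surface receptors of the immunoglobulin superfamily that bind integrins of leukocytes, VCAM1 mainly the alpha 4 integrins and ICAM1 the beta 2 integrins. In human and mouse cells all of them are known to be induced by inflammatory cytokines such as tumour necrosis factor and interferon gamma, in part through the transcription factor NF-kB.

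The table holds only genes that the authors called changed: the highest false discovery rate in the authors' deposited table was 0.0090, and no absolute log2 fold change in it was below 1.00. The contrast of siINHBA with siNC therefore chose all 4 genes, and their differences are given below as a description, without a test. FPKM is the authors' read count divided by transcript length and by the number of mapped reads. Fold changes are of counts fitted with edgeR over all 1620 genes and scaled to the depth of the libraries, which lay between 0.952 and 1.17 relative to siNC replicate 1. INHBA, the siRNA target, was at 21.2, 21.8 and 18.5 FPKM in the control libraries and at 8.02, 6.51 and 7.54 FPKM in the siINHBA libraries, so the groups did not overlap. Its log2 fold change was -1.49 (SE 0.14), beside a median of -1.16 over all 1620 listed genes. Of these genes 65.7% were called lower (edgeR quasi-likelihood adjusted p under 0.05), so a fall of this size was common among them. Of 16 granulosa markers 6 were listed, 5 lower and 1 higher, with INHBA itself among the 5. With INHBA included they summed to 252 to 264 FPKM in the control libraries and 95.6 to 109 FPKM after siINHBA. Since most listed genes were lower, no change of cell identity is read from this count. CYP11A1, a steroidogenic enzyme, was at 142 ± 5.43 FPKM in siNC and 51.6 ± 6.45 in siINHBA (mean ± SD, n = 3), and HSD17B1, an enzyme of oestradiol synthesis and the higher gene, at 1.01 ± 0.189 and 2.78 ± 0.372. Markers of other cell types were listed as well, and since only called genes are listed, the levels of the remaining markers are not known. Of 19 theca, stroma and smooth muscle markers 2 were listed, PDGFRB and DES, with a sum of 63.0 to 65.9 FPKM in the control and 16.1 to 21.6 FPKM after siINHBA. Of 12 epithelial markers 3 were listed, KRT19 and UPK1B lower and PAX8 higher, with a sum of 37.0 to 38.9 and 25.8 to 26.6 FPKM. Of 14 endothelial markers 2 were listed, VWF and KDR, with a sum of 0.569 to 0.679 and 0.117 to 0.213 FPKM. Of 18 leukocyte markers 2 were listed, CSF1R and ITGB2, with a sum of 1.01 to 1.16 and 0.318 to 0.575 FPKM. The part of these cell types in the results below was not tested.

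All 4 genes were higher in siINHBA, and for each of them every siINHBA library lay above every siNC library. Of all 1620 listed genes 34.3% were called higher (edgeR quasi-likelihood adjusted p under 0.05) and 34.3% had every siINHBA library above every siNC library. Because the same contrast selected the genes, nothing is read from the 4 of 4. With TMM scaling over the listed genes 555 genes (34.3%) were higher and 364 (22.5%) lower, in place of 555 higher and 1065 (65.7%) lower. This scaling centres on genes that the authors called changed, most of them lower, and so moves lower genes towards 0 by construction. In these bulk libraries more cells expressing a gene and more RNA per cell cannot be told apart. The median log2 fold change was -1.16 over all listed genes and 1.48 over the 555 higher genes, whereas the 4 genes had values from 2.57 to 6.96.

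**Figure D1:**
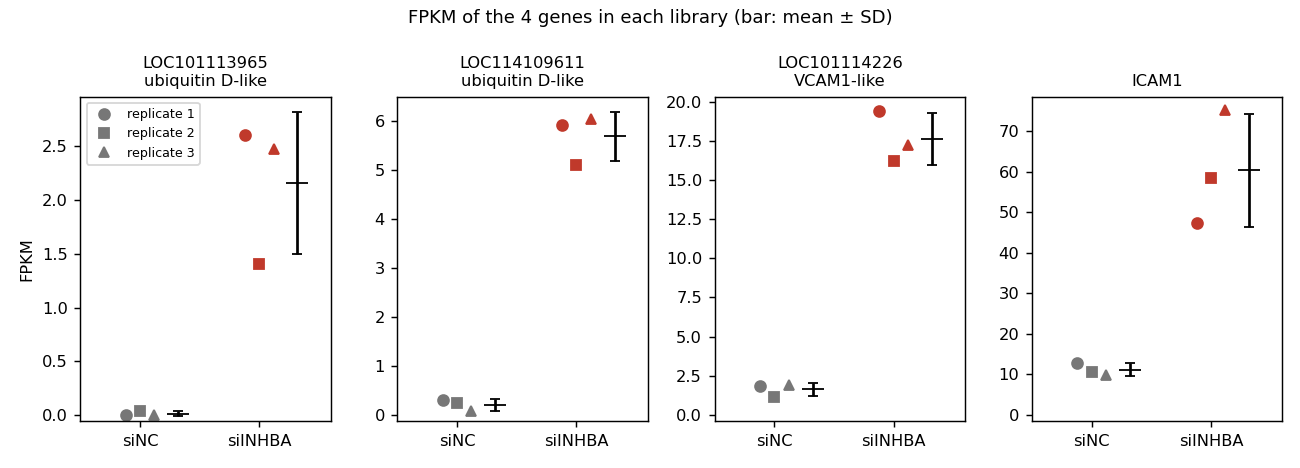
FPKM (vertical axis, from 0, a scale of its own for each gene) of the 4 genes in the 3 siNC (grey) and 3 siINHBA (red) libraries, with a marker shape for each replicate number and the mean ± SD beside each group. In every panel the lowest red point lies above the highest grey one, from 3.67 times for ICAM1 to 33.5 times for LOC101113965.

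LOC101113965, the first ubiquitin D-like gene, was almost without reads in the control. It had 0, 2 and 0 reads in siNC replicates 1, 2 and 3, or 0, 0.0416 and 0 FPKM. The siINHBA libraries held 110, 65 and 129 reads, or 2.60, 1.40 and 2.47 FPKM. The control libraries at 0 allow up to 3 reads each, which corresponds to 0.0672 FPKM in replicate 1 and 0.0640 FPKM in replicate 3. Every siINHBA library was thus far above the control, with replicate 2 the lowest.

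The ratio of its summed reads, 304 against 2 after correction for depth, was 148, with an exact 95% interval of 40.6 to 1227 that covers counting error only. The size of the rise is therefore poorly known, and the interval gives little more than its lower end. The fitted log2 fold change of 6.96 (SE 0.63) was the largest of the 1620 genes, but rests on 2 control reads and on the small count that the fit adds. It was 5.25 with an added count of 2 and 9.65 without siNC replicate 2, which holds both reads. The authors' deposited table gives lower log2 fold changes than the fit for all 4 genes. They are 4.39 for LOC101113965, 4.14 for LOC114109611, 3.28 for LOC101114226 and 2.46 for ICAM1, so the ubiquitin D-like pair lies closer together there.

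LOC114109611, the second ubiquitin D-like gene, was the more abundant of the pair. Reads numbered 15, 12 and 4 in siNC (0.311, 0.241 and 0.0734 FPKM) and 257, 243 and 324 in siINHBA (5.92, 5.11 and 6.04 FPKM). Its siINHBA libraries lay close together, with a coefficient of variation of 8.86%, against a median of 13.9% for the 407 higher genes with a mean of at least 1 FPKM. The log2 fold change was 4.67 (SE 0.34), the fifth largest of the listed genes, or 25.5-fold. The ratio of summed reads, 824 against 31, was 25.9 (exact 95% interval 18.1 to 38.3, counting error only).

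In siINHBA the FPKM of LOC114109611 was 2.28, 3.66 and 2.44 times that of LOC101113965 in replicates 1 to 3. LOC101113965 held 30.0%, 21.1% and 28.5% of the reads of the pair. In siNC it held 2 of the 33 reads of the pair, 6.06% with an exact (Clopper-Pearson) 95% interval of 0.743 to 20.2%, so the balance of the pair in the control is poorly known. How reads of like sequence were divided between genes is not given in the sources used here. The split between the pair is uncertain to that extent. Summed, the pair stood at 0.311, 0.283 and 0.0734 FPKM in siNC and at 8.51, 6.51 and 8.52 FPKM in siINHBA. The sum had a log2 fold change of 5.04 (SE 0.34) and does not depend on the split between these genes.

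In the RefSeq gene table of the assembly ARS-UI_Ramb_v3.0, used only for gene order, the pair lies on the same chromosome with 5 annotated genes between them, of which 3 are protein-coding and none is among the listed genes. The span of LOC114109611 overlaps that of LOC114109559, which is not listed either. The protocol in the labels names no step that keeps the strand, so reads of the overlap cannot be assigned to a strand here. Both genes carry the gene ontology terms response to tumor necrosis factor and proteasome binding in the deposited annotation. Of the listed genes 4 carry the first term, the other two being CXCL16 and CHI3L1, both higher as well, and 2, the ubiquitin D-like pair, carry the second. The ontology terms of 137 listed genes, ICAM1 among them, were not used here. The annotation places the pair in 0 KEGG pathways.

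LOC101114226, the VCAM1-like gene, had intermediate control levels of 200, 131 and 220 reads, or 1.82, 1.15 and 1.93 FPKM. It reached 2040, 1850 and 2239 reads in siINHBA, or 19.4, 16.2 and 17.2 FPKM. The lowest siINHBA library was 8.39 times the highest control library, and the spread among siINHBA libraries was narrow (coefficient of variation 9.50%). Its log2 fold change was 3.44 (SE 0.19), or 10.9-fold, and ranked 34 among the listed genes. By level it moved from rank 1061 to rank 194 of the 1620 genes in FPKM.

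In the RefSeq order the next gene to LOC101114226, with 0 genes between, is LOC101113636, which the deposited annotation calls vascular cell adhesion protein 1. It was listed too, at a much lower level, with 23, 7 and 13 reads in siNC (0.194, 0.0512 and 0.108 FPKM) and 97, 162 and 136 reads in siINHBA (0.892, 1.36 and 1.01 FPKM). Its log2 fold change was 3.14 (SE 0.38), and the value of its VCAM1-like neighbour lies within that error. Replicate 2 was the highest siINHBA library for LOC101113636 and the lowest for LOC101114226. Reads shared by both genes could have been assigned to either.

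ICAM1 was the most abundant of the 4 in every library. It had 1102, 929 and 949 reads in siNC (12.9, 10.6 and 9.90 FPKM) and 4555, 5966 and 7953 reads in siINHBA (47.4, 58.3 and 75.2 FPKM). It had the smallest fold change of the 4, at 2.57 on the log2 scale (SE 0.15) or 5.95-fold, and ranked 74 among the listed genes. Its siINHBA libraries were spread more widely than its control libraries, with coefficients of variation of 23.2% and 14.3%. The same held for the table, where the median over the 1232 genes with a mean of at least 1 FPKM was 16.3% in siINHBA and 7.24% in siNC. Replicate 3 was the highest siINHBA library for ICAM1 and replicate 1 the lowest, whereas replicate 1 was the highest for the VCAM1-like gene.

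Other listed receptors of leukocyte adhesion rose beside it. SELE, or E-selectin, which binds carbohydrate ligands on leukocytes, had 3.02, 2.29 and 1.86 FPKM in the control libraries and 13.7, 16.8 and 22.8 FPKM in the siINHBA libraries, so its siINHBA libraries had the order of those of ICAM1. LOC101112563, annotated as intercellular adhesion molecule 1-like, was scarce, at 12, 22 and 3 reads in siNC and 41, 98 and 100 in siINHBA. ICAM5, an adhesion molecule known from neurons of the brain and separated from ICAM1 by a single annotated gene, ICAM4, had 45, 63 and 63 reads in siNC and 125, 150 and 169 in siINHBA. The log2 fold changes were 2.89 (SE 0.24) for SELE, 2.62 (SE 0.52) for LOC101112563 and 1.33 (SE 0.21) for ICAM5. These 3 genes and LOC101113636 were named after their values were seen, except SELE and ICAM5, which belong to the endothelial adhesion list.

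**Figure D2:**
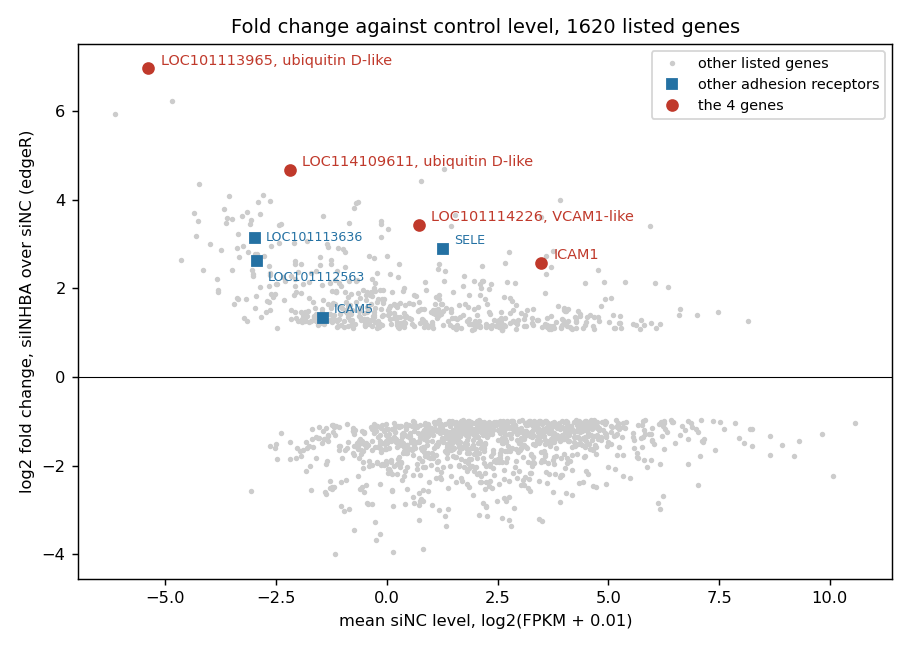
Log2 fold change of siINHBA over siNC (vertical axis, edgeR) against the mean siNC level (horizontal axis, log2 of FPKM + 0.01) for the 1620 listed genes, 1 point a gene, with the 4 genes in red and 4 other adhesion receptors in blue. The empty band around 0 is the authors' selection. Among the 4 genes the fold change falls from 6.96 to 2.57 as the mean control level rises from 0.0139 to 11.1 FPKM. The control level is also the denominator of the fold change, so this inverse order is in part built in.

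Within each library the order of the 4 genes by FPKM was the same: ICAM1, the VCAM1-like gene, LOC114109611 and LOC101113965, and neighbours in this order did not overlap within a group. The order by fitted fold change was the reverse. That order depends on the scale: limma on log2(FPKM + 1), which lowers the change of low genes by construction, gave 1.62 for LOC101113965, 2.47 for LOC114109611, 2.83 for the VCAM1-like gene and 2.32 for ICAM1, and 2.34, 3.14, 3.10 and 2.37 with 0.5 added in place of 1. The siNC means were 11.1 ± 1.59, 1.63 ± 0.419, 0.208 ± 0.122 and 0.0139 ± 0.0240 FPKM (mean ± SD, n = 3), and the siINHBA means 60.3 ± 14.0, 17.6 ± 1.67, 5.69 ± 0.504 and 2.16 ± 0.661 FPKM. As a ratio of the highest to the lowest mean, the levels thus spanned a narrower range in siINHBA than in siNC, but in FPKM units a wider one. The ratio in siNC rests on the 2 control reads of LOC101113965. The control level is the denominator of the fold change, so the reversed order of the fold changes is in part built in. The lowest control levels are also those most limited by counting.

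The reads and the FPKM of ICAM1 differed in how far they moved. The number of reads behind 1 FPKM, after correction for depth, is proportional to the transcript length that the authors' FPKM used. Relative to siNC replicate 1, it was 1.00 and 1.07 in siNC replicates 2 and 3 and 1.18, 1.16 and 1.06 in siINHBA replicates 1 to 3, so siINHBA replicate 3 overlapped the control. On the log2 scale the siINHBA mean was 0.15 above the siNC mean. Of 702 genes with over 200 reads in every library 665 (94.7%) shifted by at most 0.05, and 9 shifted by more than ICAM1. These shifts compare group means and leave out the spread between libraries. INHBA shifted by only -0.0175, yet relative to siNC replicate 1 its libraries ranged from 0.839 in siINHBA replicate 3 to 1.13. The VCAM1-like gene shifted by 0.01, and LOC114109611 by -0.12 with 31 control reads behind its value. As a result the ratio of mean FPKM gives a smaller log2 difference for ICAM1, 2.44, than its reads, 2.57. Which transcripts the authors' FPKM used is not given in the sources used here.

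**Figure D3:**
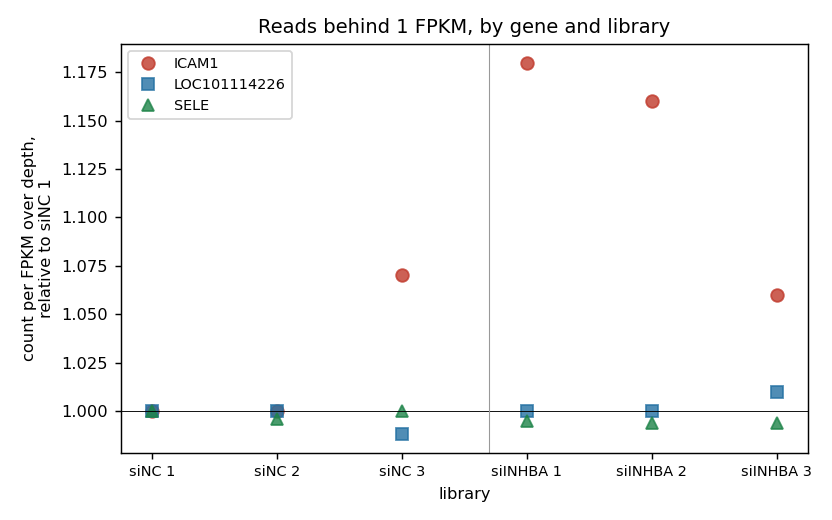
Reads behind 1 FPKM, corrected for depth and relative to siNC replicate 1 (vertical axis, not starting at 0), for ICAM1, the VCAM1-like gene LOC101114226 and SELE in the 6 libraries. ICAM1 lies between 1.06 and 1.18 in the siINHBA libraries, with siNC replicate 3 at 1.07, while the other two genes stay between 0.988 and 1.01 in all libraries.

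The deposited annotation puts LOC101114226 in 8 KEGG pathways and ICAM1 in 16, and all 8 of the former are shared. In the cell adhesion molecules pathway 23 genes were listed, 13 higher and 10 lower, and its 5 largest rises were LOC101114226, LOC101113636, SELE, LOC101112563 and ICAM1. The counts that follow leave out ICAM1 and the VCAM1-like gene, and stand beside 34.3% of all listed genes higher and a median log2 fold change of -1.16. In cell adhesion molecules 11 of 21 others were higher (median 1.17), in leukocyte transendothelial migration 4 of 12 (median -1.09), in AGE-RAGE signalling in diabetic complications 10 of 21 (median -1.01) and in fluid shear stress and atherosclerosis 9 of 19 (median -1.18). In TNF signalling 22 of 28 were higher (median 1.61), in NF-kappa B signalling 19 of 24 (median 1.87), and in the infection pathways malaria and African trypanosomiasis 8 of 12 (median 2.10) and 7 of 7 (median 2.48). These 8 pathways were chosen because ICAM1 and the VCAM1-like gene share them. They overlap in other genes too, with LOC101113636 in all 8, so their counts are not separate.

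TMM over the listed genes centres on changed genes, of which 65.7% were lower, and raised the log2 fold change of the median gene by 1.09. Most of the lower genes of these pathways lost their call with it. Such losses follow from the shift and do not show which genes were unchanged. Of 10 lower adhesion genes 3 still passed as lower and 1 turned higher, of 11 AGE-RAGE genes 3 and 2, of 10 fluid shear stress genes 5 and 0, and of 6 TNF genes 2 and 1. Of 8 lower transendothelial migration genes 0 still passed in edgeR and 2 turned higher, with 1 lower at an unadjusted p under 0.05 and 0 lower calls in DESeq2 with its own size factors. Of 4 malaria genes 0 still passed and 1 turned higher, with 1 lower at an unadjusted p under 0.05 and 0 in DESeq2. Of 5 NF-kappa B genes 0 still passed and 1 turned higher, with 0 lower at an unadjusted p under 0.05 and 0 in DESeq2.

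The remaining genes around the 4 are counted in 9 lists chosen with earlier results of these data known. Every listed gene passed the edgeR quasi-likelihood test at an adjusted p under 0.05 (100% of 1620), within the authors' own selection. The counts therefore say which genes were listed and in which direction. Genes were matched to the lists by symbol, so listed genes with LOC names are not counted in them. Of all 1620 listed genes 34.3% were higher and 65.7% lower, with a median log2 fold change of -1.16. The share of all expressed genes that were listed is not known here. Not every name could be found. The RefSeq gene table held 15 of 20 immunoproteasome and antigen presentation names, 19 of 25 cytokine targets and 20 of 24 STAT and IRF names. It held 18 of 20 endothelial adhesion names, 23 of 25 ubiquitin-like modifiers, 17 of 18 cytokines and all names of the other lists. Of each list the most abundant listed genes are named, up to 3.

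LOC101113636, LOC101114226 and LOC101112563, annotated as VCAM1, VCAM1-like and ICAM1-like and all higher, carry LOC names and are not counted here. Of 20 endothelial adhesion genes 5 were listed by symbol, 3 higher (ICAM1, SELE and ICAM5) and 2 lower. The lower ones were NCAM1, the neural cell adhesion molecule, at 71.3 ± 3.86 FPKM in siNC and 18.3 ± 3.61 in siINHBA, and L1CAM, of the same superfamily, at 15.4 ± 1.08 and 7.62 ± 1.35 (mean ± SD, n = 3). Adhesion molecules of the immunoglobulin superfamily thus moved in both directions. TMM over the listed genes raised the log2 fold change of the median gene by 1.09. NCAM1 was then at -0.87 and still passed, whereas L1CAM went from -1.00 to 0.09 and did not. The median of the 5 was 1.33.

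Of 12 counter-receptors that leukocytes carry 3 were listed, with a median of -1.48, and the levels of the other 9 are not known here. ITGA4, a subunit of the VCAM1-binding integrins, fell from 0.229 ± 0.0361 to 0.0623 ± 0.0367 FPKM. ITGB2, the beta subunit of the ICAM1-binding integrins, fell from 0.659 ± 0.0756 to 0.233 ± 0.116, and ITGB7, a partner of ITGA4, rose from 0.230 ± 0.0480 to 0.643 ± 0.101 (n = 3). With TMM ITGA4 and ITGB2 were at -0.74 and -0.40 on the log2 scale and no longer passed.

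Among 25 genes of ubiquitin-like modifiers 1 was listed by symbol, HERC5, a ligase for the interferon-induced modifier ISG15. It was at 8.90 ± 2.67 FPKM in siNC and 25.3 ± 4.94 in siINHBA. That list names ubiquitin D, but the ubiquitin D-like pair, both higher, carry LOC names and are not counted in it. The list of the immunoproteasome and antigen presentation had 3 of 20 genes listed, all 3 higher, with a median log2 fold change of 1.59. PSMB10, a catalytic subunit that cytokines induce in the proteasome, rose from 53.4 ± 4.32 to 130 ± 14.0 FPKM. ERAP2, which trims peptides for presentation, rose by 1.59 (SE 0.14) on the log2 scale, and NLRC5, a regulator of MHC class I genes, by 1.91 (SE 0.20).

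Cytokines that are known to induce the 4 genes or act in the same responses had 5 of 18 genes listed, all 5 higher, with a median of 1.89. LIF rose from 12.8 ± 0.820 to 28.2 ± 6.59 FPKM, IL1A from 1.19 ± 0.280 to 7.07 ± 1.58 and TNFSF10 from 1.75 ± 0.449 to 4.28 ± 0.291 (mean ± SD, n = 3). TNF and IFNG were not among the listed genes, so nothing is said of their levels. Of 20 cytokine receptors 2 were listed, both higher (median 1.67): CD40, a receptor of the TNF family, by 2.00 (SE 0.27) and OSMR, the oncostatin M receptor, by 1.34 (SE 0.14) on the log2 scale.

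The NF-kB list had 12 of 29 genes listed, all 12 higher, with a median of 1.85. NFKBIA, the inhibitor that holds NF-kB in the cytoplasm and is itself an NF-kB target, rose from 13.0 ± 2.31 to 72.5 ± 8.46 FPKM. TNIP1, a partner of the NF-kB inhibitor A20, rose by 1.41 (SE 0.13) and NFKB2, a precursor of the p52 subunit, by 1.49 (SE 0.13) on the log2 scale. The list of STAT and IRF factors and their targets had 7 of 24 listed, 6 higher and 1 lower, with a median of 2.48. IRF7, a regulator of interferon genes, rose from 67.5 ± 9.47 to 146 ± 17.2 FPKM. BATF2 and the chemokine CXCL10 rose by 3.81 (SE 0.26) and 3.52 (SE 0.32), and the lower gene was SOCS3, at -1.05, or 0.04 with TMM. Of 25 other cytokine-induced targets 12 were listed, all 12 higher, with a median of 2.37. The most abundant were SOD2, a mitochondrial superoxide dismutase, at 1.77 (SE 0.12), and the chemokines CCL20 and CXCL8, at 4.70 (SE 0.24) and 2.82 (SE 0.30).

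**Figure D4:**
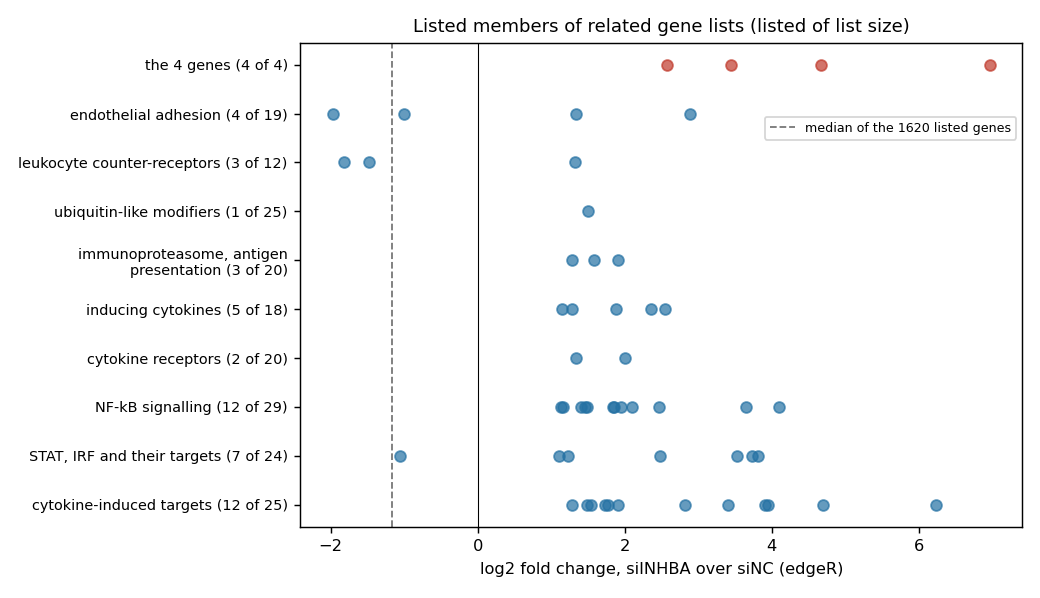
Log2 fold change of siINHBA over siNC (horizontal axis, edgeR) of the 4 genes (red) and of the listed members of 9 related gene lists (blue, 1 point a gene, the 4 genes left out), with the number listed of the list size. Lists were matched by symbol, so listed genes with LOC names are not among the blue points. The dashed line is the median of the 1620 listed genes, -1.16. The cytokine, receptor, antigen presentation, NF-kB and cytokine-target points all lie to the right of 0, while the adhesion, counter-receptor and STAT and IRF rows have points on both sides. With TMM, which raises the median listed gene by 1.09, L1CAM and SOCS3 move to just above 0.

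The genes whose values over the 6 libraries were most like those of each of the 4 were found among the listed genes with a symbol and a mean of at least 1 FPKM (1094 candidates, 1093 for ICAM1), by the root mean square difference of log2((FPKM + 0.1) over the siNC mean). For ICAM1 these were CDC42EP2, an effector of the GTPase CDC42, at 0.10, NFKBIA at 0.12 and NOCT, nocturnin, at 0.19, against a median of 2.53 over the candidates. NFKBIA had log2 values of 2.33, 2.40 and 2.64 in siINHBA replicates 1 to 3, where ICAM1 had 2.08, 2.38 and 2.74. For the VCAM1-like gene the nearest were IBSP, bone sialoprotein, at 0.19, NFKBIZ, an atypical member of the NF-kB inhibitor family, at 0.22 and TM4SF1, a membrane protein, at 0.25, against a median of 3.20.

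For LOC101113965 the nearest were SLPI, a secreted protease inhibitor, at 0.25, MMP13, a collagenase, at 0.54 and CCL20 at 0.57. For LOC114109611 they were SLPI at 0.45, BATF2 at 0.57 and MMP13 at 0.59. Among the 4 genes themselves the ubiquitin D-like pair was closest, at 0.42, and LOC101113965 and ICAM1 farthest apart, at 1.38. The added 0.1 FPKM limits the values of the pair, whose control levels are near or below it. These distances describe 6 libraries in which the difference between groups dominates, and carry no test.

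**Figure D5:**
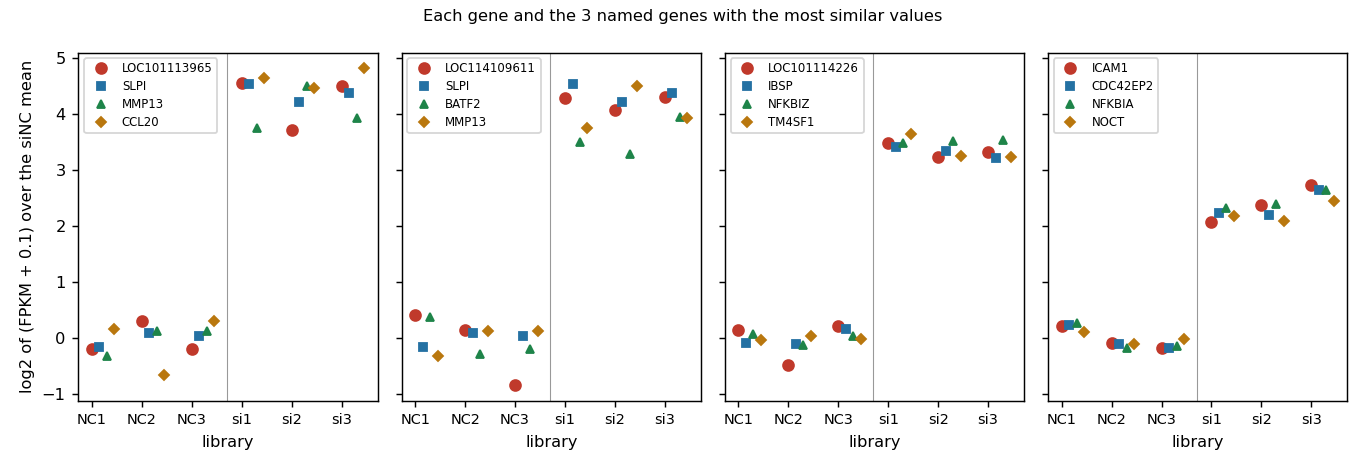
Log2 of FPKM + 0.1 over the siNC mean (vertical axis) in siNC replicates 1 to 3 (NC1 to NC3) and siINHBA replicates 1 to 3 (si1 to si3) for each of the 4 genes (red circles) and the 3 genes nearest to it. The points of ICAM1 and its 3 neighbours nearly coincide in the control and lie between 2.08 and 2.74 in siINHBA.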

How the data were processed

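Poly(A) RNA was sequenced from 6 libraries, per the labels' protocols. Per the file headers, the authors deposited raw read counts and FPKM per gene and library, and, for the comparison of the groups, a log2 fold change with its false discovery rate, an adjusted p-value. The sources used here name no aligner, counter or genome build. The table had 1620 genes after 4 incomplete lines were left out.

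Depth was recovered as the median ratio of count to FPKM over the 702 genes that exceeded 200 counts in all libraries. Counts were fitted with edgeR 4.0.16 (R 4.3.3, glmQLFit, filterByExpr with a minimum count of 10), adjusted by Benjamini-Hochberg over all genes. LOC101113965 and LOC114109611 passed that filter through the siINHBA libraries, and all 4 genes passed. SE is the absolute log2 fold change over the square root of F. The method was tested on simulated counts with the depth given, equal noise in both groups and smaller fold changes than those of the 4 genes. That run does not cover folds as large or control counts as low as those of the ubiquitin D-like pair. Counts of replicate libraries differed by more than sampling noise (mean chi-square per gene 5.33 to 8.75 within siNC and 17.6 to 47.4 within siINHBA, where the pairs with replicate 1 gave 47.4 and 34.9). Of the listed genes 1467 were found in the RefSeq table, all 4 genes included.

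The genes and lists were chosen with earlier results of these data known. Beyond the 4 genes and INHBA, up to 3 genes of each list were named by mean FPKM, and 3 for each gene by likeness; marker genes, genes sharing an annotation and neighbours were named after their values were seen. Further fits used limma 3.58.1 on log2 FPKM, DESeq2 1.42.0, TMM, filters, pseudocounts, a replicate block and leaving out each library.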

Additional observations from a re-analysis of the deposited data

How the results depend on the processing

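All 85 values of the 4 genes and the summed ubiquitin D-like pair under 17 alternatives were positive, and 27 of them moved by more than 1 SD between replicates. The same contrast chose the genes as higher and their groups did not overlap, so the sign could hardly change and nothing is read from it. TMM over the listed genes and DESeq2 with its own size factors, which centre the table on its median gene, gave 919 and 914 passing genes in place of 1620, and higher log2 fold changes: 7.98 and 8.31 for LOC101113965, 5.76 and 5.78 for LOC114109611, 6.12 and 6.14 for their sum, 4.52 and 4.53 for LOC101114226 and 3.66 and 3.67 for ICAM1. A pseudocount lowers the change of low genes by construction. limma on log2(FPKM + 1), with or without a minimum mean of 1 FPKM, gave 1.62, 2.47, 2.85, 2.83 and 2.32 in that order. With 0.5 it gave 2.34, 3.14, 3.54 and 3.10 for the first 4, and with 0.1 it gave 4.28 for LOC101113965. An edgeR prior count of 2, added after seeing the data as was the ratio of mean FPKM, gave 5.25 for LOC101113965.

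Without each library in turn, LOC101113965 ranged from 6.44 to 9.65, LOC114109611 from 4.28 to 5.06, their sum from 4.63 to 5.34, LOC101114226 from 3.25 to 3.57 and ICAM1 from 2.44 to 2.69, and 1618 to 1620 genes passed. The highest value of LOC101113965 came without siNC replicate 2, where its control count is 0. Without siINHBA replicate 1, which differed most from the other siINHBA libraries, the 4 genes stood at 6.82, 4.64, 3.36 and 2.69. No label pairs the libraries by replicate number, and the deviations of same-numbered libraries from their group means correlated at 0.08, 0.22 and -0.01. With a replicate block 1620 genes passed and the 4 genes stood at 6.93, 4.69, 3.46 and 2.56. Control counts of 2 and 31 limit the precision of the ubiquitin D-like folds.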
